A study of Mus musculus with 6 samples.

Results

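ATP-binding cassette (ABC) transporters were examined in NMuMG cells, an immortalised mouse mammary epithelial line, before, during and after exposure to transforming growth factor β (TGF-β). The family was taken as every gene whose annotated symbol is Abc, a subfamily letter from a to g and a number, with or without a final a or b, on probe sets annotated with a single symbol. This gave 45 genes out of 18193 genes measured, covered by 92 of the 34945 single-symbol probe sets. Subfamily A held 14 of them, B 8, C 10, D 3, E 1, F 3 and G 6. Each gene was read from the probe set that was brightest on average across the 6 arrays.

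The study placed RNA from 3 groups on 6 arrays, 2 arrays per group. Control cells received vehicle, the TGF-β group received 4 ng/ml TGF-β for 11 days, and the withdrawal group was treated likewise and then cultured for 13 days without TGF-β. All groups were the same line, with no genetic change given in the labels. TGF-β is used in this line to induce an epithelial-mesenchymal transition (EMT), in which epithelial cells lose their junctions and gain mesenchymal genes, and removal of TGF-β is used to study the return (MET). The labels' free-text description gives the EMT name to the withdrawal arrays and the MET name to the TGF-β arrays; the groups here follow the titles and the stated treatments. Nothing in the labels states whether the 2 arrays of a group hold separate cultures, so the tests reflect array-to-array spread alone, which may be technical. The withdrawal cells had also been followed for longer than the TGF-β cells, so withdrawal and time in culture cannot be told apart. These are bulk samples, in which fewer cells of a type and less RNA per cell cannot be told apart.

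ABC transporters bind and hydrolyse ATP to move a substrate across a membrane. Subfamily A mostly handles lipids, B and C hold the drug and conjugate pumps together with organelle carriers, D serves peroxisomes and lysosomes, and G moves sterols and drugs. Subfamilies E and F have the ATP-binding cassettes but no membrane-spanning part, and their products act on ribosomes. In mammary epithelium the drug pump Abcg2 is known for carrying compounds into milk.

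Values are the deposited log2 expression values, on which 1 unit is a doubling. Arrays of the same group correlated at 0.9976 to 0.9981 over all probe sets and arrays of different groups at 0.9736 to 0.9813. A gene was called where limma's adjusted p, computed over all 18193 genes, was under 0.05. The labelled state was checked with the epithelial adhesion gene Cdh1, which read 11.99 and 11.89 in control, 8.37 and 8.25 under TGF-β, and 11.80 and 11.79 after withdrawal. The fibroblast collagen gene Col1a1 read 5.85 and 5.89, 9.57 and 9.83, and 6.43 and 6.16 in the same order. After withdrawal Col1a1 was called 0.42 above control, a call lost when its probe sets were averaged and under both spike scalings described below. Further markers stayed away from control after withdrawal. The keratin genes Krt8, Krt18 and Krt19 were at -0.94, -0.53 and -0.89 from control, the desmosome gene Dsp at -0.67, and the fibroblast receptor gene Pdgfrb at 5.395. The epithelial gene Epcam did not follow Cdh1. It was 0.19 from control under TGF-β, not called, and -0.27 from TGF-β to withdrawal, a call lost when its probe sets were averaged. The claudin genes Cldn3 and Cldn7 were not called in any comparison. Of the 45 transporters, 17 were among the dimmest 40% of genes on these arrays, with a mean below 6.08, where signal is weakest. They are named as dim.

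The promoters below are shown because the results turn on the gene that changed most, Abca1, and on the paralogs Abcb1a and Abcb1b, which moved in opposite directions under TGF-β. Each is the 250 bases before the annotated transcription start in RefSeq's table for GRCm38.p6, written 5′ to 3′ on the gene's strand. Abca1 is on the minus strand at chr4:53159896-53160145, Abcb1a on the plus strand at chr5:8566841-8567090, and Abcb1b on the plus strand at chr5:8797897-8798146. Capitals mark the GC box GGGCGG, the E-box CACGTG, the TATA box TATAAA and, in Abca1, the window closest to a DR4 element.
Abca1: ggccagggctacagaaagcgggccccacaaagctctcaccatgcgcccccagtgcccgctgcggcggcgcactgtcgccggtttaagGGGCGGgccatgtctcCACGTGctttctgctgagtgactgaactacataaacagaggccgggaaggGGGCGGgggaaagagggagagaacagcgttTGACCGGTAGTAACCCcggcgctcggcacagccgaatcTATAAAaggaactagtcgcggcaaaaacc
Abcb1a: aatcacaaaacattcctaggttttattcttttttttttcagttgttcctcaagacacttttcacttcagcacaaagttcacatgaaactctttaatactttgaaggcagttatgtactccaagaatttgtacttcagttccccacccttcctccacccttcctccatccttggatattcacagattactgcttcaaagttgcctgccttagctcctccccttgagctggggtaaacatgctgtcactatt
Abcb1b: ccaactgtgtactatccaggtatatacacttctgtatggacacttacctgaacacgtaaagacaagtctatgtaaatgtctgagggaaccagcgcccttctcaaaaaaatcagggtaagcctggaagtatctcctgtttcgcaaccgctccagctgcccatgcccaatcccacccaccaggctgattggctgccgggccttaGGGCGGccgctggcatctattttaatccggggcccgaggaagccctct

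A DR4 element, the motif AGGTCA repeated after 4 spacer bases, is bound by the liver X receptors (LXRs), nuclear receptors that sense oxysterols and are known to drive Abca1 in many tissues. Both strands were searched with up to 2 mismatches in the 12 fixed bases, which 2.57% of 32851 mouse promoters of this length held. No promoter of the 35 transporters found in the table held it, and the closest window in Abca1, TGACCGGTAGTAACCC at 67 to 52 bases before the start, had 3 mismatches. That looser limit was set after the sequence was seen; 18.5% of all promoters and 2 of the 35 transporters (Abca1 and Abcc10) met it. The Abca1 promoter also held GC boxes at 163 to 158 and at 97 to 92 bases, an E-box at 147 to 142 bases and a TATA box at 29 to 24 bases before the start. Over all promoters, 32.7% held the GC box, 6.02% the E-box and 12.4% the TATA box. The Abcb1b promoter held a GC box at 48 to 43 bases before the start and the Abcb1a promoter held none. Aligned end to end, the Abcb1a and Abcb1b promoters were identical at 49.3% of positions, against 43.0% and 43.9% for Abca1 aligned with each of them. These windows of the paralogs were thus little closer to each other than to that of Abca1, and no other promoters were aligned. The GC content was 40.4% in Abcb1a, 52.8% in Abcb1b and 61.6% in Abca1. A limit of 2 mismatches can miss an element that differs more from the motif, so no match does not mean no element. These letters describe the windows and say nothing of binding.

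Abca1, which loads cholesterol and phospholipid onto apolipoprotein A-I, had the largest rise in signal of any gene after withdrawal. Its selected probe set (1421840_at) read 5.05 and 5.01 in control, 4.93 and 4.72 under TGF-β, and 10.94 and 10.83 after withdrawal. The withdrawal arrays stood far above the other 4 arrays, and the TGF-β arrays lay slightly below control. The group means were 5.03 ± 0.0335, 4.83 ± 0.149 and 10.89 ± 0.0819 (SD, n = 2 each). Withdrawal was 6.06 ± 0.0859 (SE) above TGF-β (limma adjusted p = 1.01e-06) and 5.86 ± 0.0859 above control (adjusted p = 2.22e-06). As differences of signal, both ranked 1 among the 18193 genes. The control and TGF-β values lie in the range of the dim genes, and Abca1 stands outside it only through the withdrawal arrays, so the size of these differences depends on signal that may be background and no fold is given. The difference between TGF-β and control, -0.20 ± 0.0859, did not pass (limma adjusted p = 0.134); it passed without TGF-β replicate 1, at -0.31 with an adjusted p of 0.0484, and under both spike scalings described below, at -0.49 and -0.36.

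The gene's other probe sets did not show a change of this size. Probe set 1421839_at read 4.58 and 4.70 in control, 4.86 and 4.80 under TGF-β, and 5.34 and 5.03 after withdrawal. In a fit over all single-symbol probe sets it was 0.35 ± 0.111 higher after withdrawal than under TGF-β (limma adjusted p = 0.0465) and 0.55 ± 0.111 higher than in control (adjusted p = 0.00865). Probe set 1450392_at read 3.59 and 3.62, 3.41 and 3.63, and 3.73 and 4.00 in the same order. Its differences of 0.34 and 0.26 did not pass (limma adjusted p = 0.0566 and 0.126). The direction after withdrawal was upward in all 3 probe sets, but the size of the rise rests on 1421840_at alone, and the part of the transcript each probe set reads is not given in the sources used here. With the mean of the 3 probe sets in place of the brightest, Abca1 was 2.25 above TGF-β and 2.22 above control, and both were called.

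**Figure D1:**
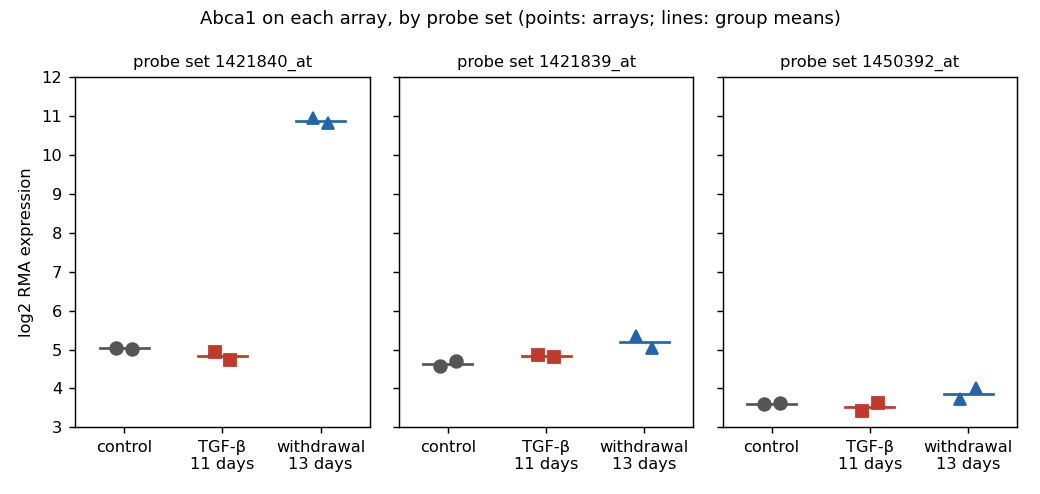
Log2 expression of Abca1 (y axis, log2 RMA) on each of the 6 arrays by group (x axis), with one panel per probe set; points are arrays and lines are group means. The withdrawal arrays sit at 10.94 and 10.83 in 1421840_at, and between 3.73 and 5.34 in the other probe sets.

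The genes outside the family whose centred values over the 6 arrays lay closest to those of Abca1 were Enpep, Ogn, Pamr1, Egr1 and Plin4. Distance was Euclidean, on log2 values minus each gene's control mean. The aminopeptidase gene Enpep, at a distance of 1.27, read 3.83 and 3.91 in control, 3.84 and 3.70 under TGF-β and 8.72 and 9.003 after withdrawal. The matrix proteoglycan gene Ogn (1.67) was 5.002 higher after withdrawal than in control, and Pamr1 (2.09) was 4.45 higher. The early-response transcription factor gene Egr1 (2.14) was 4.39 higher, and the lipid droplet gene Plin4 (2.501) was 4.10 higher. The control and TGF-β values of Enpep, Ogn, Pamr1 and Plin4 lie in the range of the dim genes.

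Across the family, fewer genes rose than fell under TGF-β. Compared with control, 2 of the 45 transporters were higher (4.44%) and 11 lower (24.4%), where 15.0% of all genes were higher and 17.5% lower. After withdrawal, 13 were higher than under TGF-β (28.9%) and 9 lower (20.0%), beside 21.8% and 22.1% of all genes. Against control, withdrawal left 10 higher and 10 lower (22.2% each), beside 21.7% and 23.6% of all genes. The shares in the withdrawal comparisons were thus near the background. The median difference over the 45 transporters was -0.04 under TGF-β, -0.03 for withdrawal compared with TGF-β and -0.07 for withdrawal compared with control, beside -0.01, -0.03 and -0.04 over all genes. The 3 comparisons share arrays. The dim transporters contributed 2 of the 11 lower calls under TGF-β and 2 of the 13 higher calls after withdrawal.

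The split of calls depended on how arrays were put on a common scale. Scaling to the poly-A spike RNAs moved the median of all genes to -0.30 in the comparison of TGF-β with control, 0.12 in that of withdrawal with TGF-β and -0.18 in that of withdrawal with control. Scaling to the hybridization spikes moved it to -0.17, -0.25 and -0.42. The calls among transporters then became 1 higher and 18 lower, 12 and 3, and 7 and 8 with the poly-A spikes, and 2 and 16, 10 and 18, and 5 and 32 with the hybridization spikes. Changes are therefore given relative to the other genes on the same arrays, and the direction of each transporter call held under both scalings except for Abcb6, described below. With the poly-A spikes a call was lost for Abca2, Abca13, Abcb1a, Abcb4, Abcb6, Abcc1, Abcc4, Abcc5, Abcd2, Abcf1, Abcf2 and Abcf3. With the hybridization spikes a call was lost for Abca2, Abca4, Abca5, Abcb6, Abcc1, Abcc5 and Abcf3. Each of the 6 arrays was also left out in turn, and calls lost in any of these 6 fits are given with their number.

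**Figure D2:**
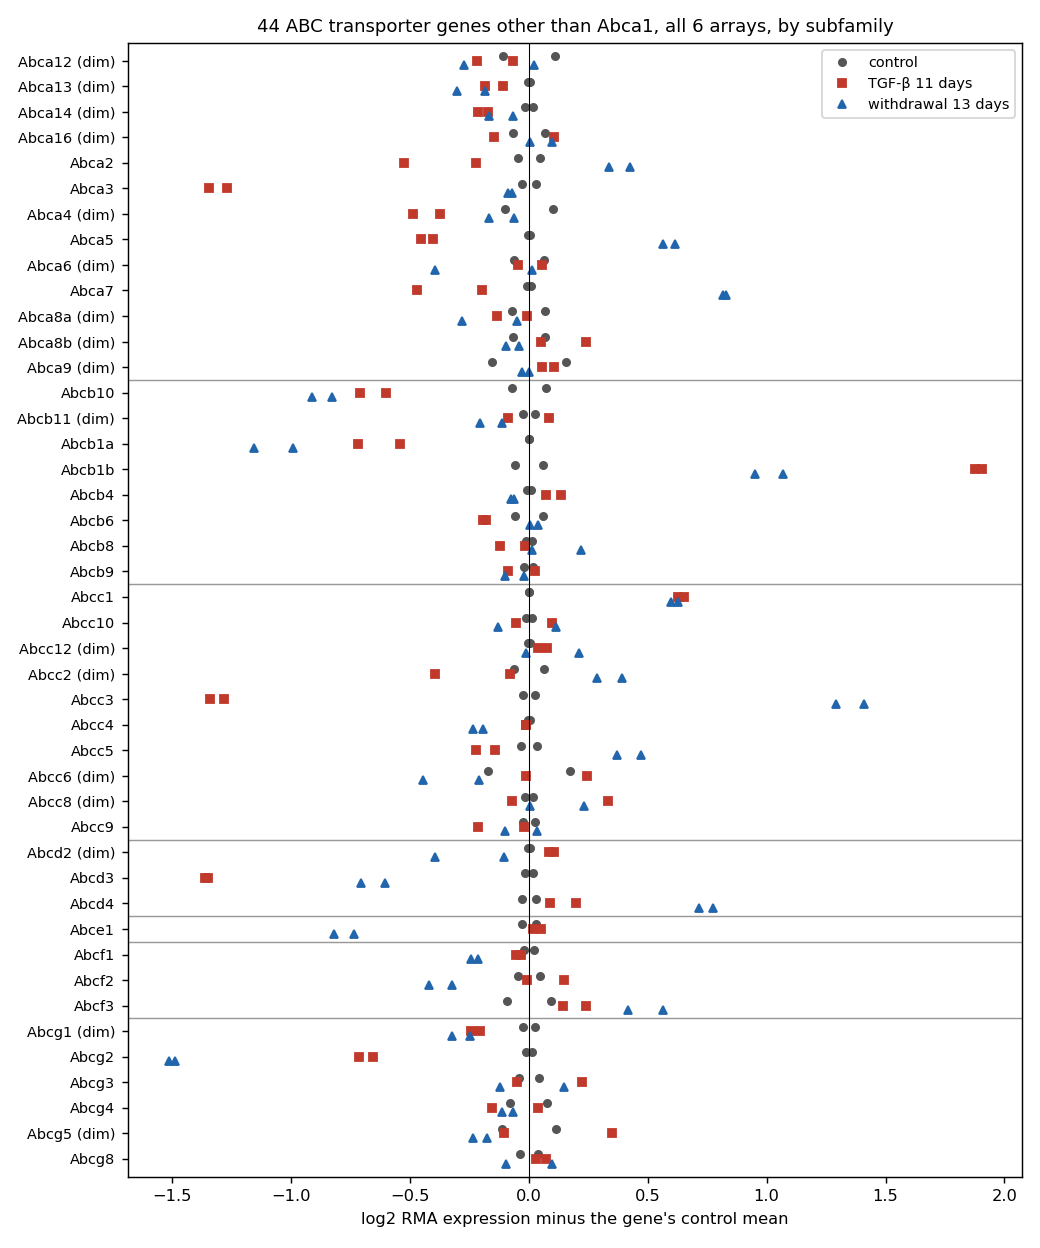
Log2 expression minus the gene's control mean (x axis) for the 44 transporters other than Abca1 (y axis, grouped by subfamily), with every array as a point; symbols mark control, TGF-β and withdrawal, and genes among the dimmest 40% are marked dim. Abcb1b stands furthest to the right under TGF-β, Abcd3, Abcc3 and Abca3 furthest to the left, and Abcc3 furthest to the right after withdrawal.

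Subfamily A, the lipid carriers, had 5 of its 14 members lower (35.7%) under TGF-β and none higher, beside 17.5% and 15.0% of all genes. After withdrawal 6 were higher (42.9%) and none lower compared with TGF-β, beside 21.8% and 22.1%. Against control, withdrawal left 4 higher (28.6%) and 1 lower (7.14%), beside 21.7% and 23.6%. The median over the 14 members was -0.17, 0.07 and -0.07 in the 3 comparisons.

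Abca3, which moves phospholipid into lamellar bodies in lung, fell under TGF-β and returned. It read 9.43 and 9.48 in control, 8.18 and 8.11 under TGF-β, and 9.36 and 9.38 after withdrawal. The TGF-β arrays lay below all others, with a difference of -1.31 ± 0.0546 from control (limma adjusted p = 2.31e-05) and a rise of 1.23 on withdrawal (2.02e-05). Withdrawal and control differed by -0.08, which did not pass (0.293). A second probe set showed -1.08 and 1.33 for the same steps, and the third was dim and not called.

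Abca5, a lysosomal and endosomal family member, read 8.17 and 8.17, 7.76 and 7.72, and 8.78 and 8.73 in the order control, TGF-β and withdrawal. It fell by 0.43 under TGF-β (limma adjusted p = 0.00145) and rose by 1.02 on withdrawal (3.01e-05), to 0.59 above control (2.2e-04). The last call was lost with the hybridization spikes. Abca7, a phospholipid exporter closely related to Abca1, read 8.40 and 8.42, 7.94 and 8.22, and 9.24 and 9.23. It rose by 1.16 ± 0.0938 on withdrawal (limma adjusted p = 1.81e-04), to 0.82 above control (7.06e-04). Its fall under TGF-β, -0.33 (0.0402), was lost in 5 of the 6 fits and was -0.20 without TGF-β replicate 1.

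Abca2, an endolysosomal lipid carrier, read 6.74 and 6.64, 6.16 and 6.47, and 7.11 and 7.03. It rose by 0.76 from TGF-β to withdrawal (limma adjusted p = 0.00199). Its fall of -0.37 under TGF-β (0.0445) was lost in 5 of the 6 fits and was -0.22 without TGF-β replicate 1. Its 0.38 above control after withdrawal (0.0309) was lost in 4 of the 6 fits and under both spike scalings. The dim gene Abca4, the retinoid flippase of photoreceptors, was called at -0.43 under TGF-β (limma adjusted p = 0.0128) and 0.32 higher on withdrawal (0.0309), calls lost in 2 and 4 of the 6 fits. Dim Abca13 was at -0.24 from control after withdrawal (0.0216), lost in 3 of the 6 fits. The other 7 members of the subfamily (Abca6, Abca8a, Abca8b, Abca9, Abca12, Abca14 and Abca16) were dim and not called in any comparison.

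Subfamily B holds the drug pump P-glycoprotein, which mice encode with the paralogs Abcb1a and Abcb1b. Abcb1b was higher under TGF-β and Abcb1a lower. Abcb1b read 6.97 and 7.09 in control, 8.94 and 8.91 under TGF-β, and 7.98 and 8.10 after withdrawal. Its rise of 1.89 ± 0.0681 under TGF-β was 3.71-fold (limma adjusted p = 1.33e-05) and the largest difference of any transporter in that comparison. It fell by 0.88 on withdrawal (1.49e-04) and stayed 1.01 above control (7.91e-05). A second Abcb1b probe set was dim and not called.

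Abcb1a read 6.80 and 6.80, 6.26 and 6.08, and 5.81 and 5.64 in the same order, with no overlap between groups. The difference under TGF-β was -0.63 ± 0.0853 (limma adjusted p = 0.00238), and that between withdrawal and control was -1.07 (1.5e-04). The step from TGF-β to withdrawal, -0.44 (0.0071), was lost with the poly-A spikes. Its other probe set differed by -0.52 (0.0918), -1.12 (0.00382) and -1.64 (6.74e-04), listing the TGF-β step, the withdrawal step and withdrawal compared with control. The paralogs are similar in sequence, and cross-hybridization between their probe sets was not tested.

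Abcb10, a mitochondrial inner membrane carrier linked to haem synthesis, read 8.54 and 8.40, 7.87 and 7.76, and 7.56 and 7.64. It fell by 0.66 under TGF-β (limma adjusted p = 0.00115) and was at -0.87 from control after withdrawal (2.02e-04). A second probe set gave -0.79 and -0.87. Abcb4, the phosphatidylcholine flippase of bile, was called at -0.17 from TGF-β to withdrawal (limma adjusted p = 0.0385), and Abcb6, a porphyrin carrier, at 0.21 (0.0342). The calls were lost in 6 and 4 of the 6 fits, and Abcb6 turned to -0.01 with the hybridization spikes. Abcb8, Abcb9 and the dim bile salt pump gene Abcb11 were not called by their selected probe sets. Another Abcb8 probe set was 0.79 higher on withdrawal than under TGF-β (limma adjusted p = 0.0046 in the fit over probe sets), and Abcb8 was called in all 3 comparisons when its probe sets were averaged. Another Abcb9 probe set was at -0.35 in the same step (0.0229).

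Of the haem and iron-sulfur genes, 3 of the 16 measured were higher and 4 lower under TGF-β, and 8 higher and 4 lower after withdrawal than in control. Of all genes, 15.0% and 17.5% were higher and lower under TGF-β and 21.7% and 23.6% after withdrawal, so the shares of 18.8% and 25% under TGF-β, and of 25% lower after withdrawal, were near the background. The first split became 0 higher and 5 lower with the poly-A spikes. The second split became 1 higher and 4 lower with the poly-A spikes and 1 and 8 with the hybridization spikes. The mitochondrial carrier gene Slc25a37 was 1.08 above control after withdrawal and Alad, which makes porphobilinogen, was at -0.84 (limma adjusted p = 5.1e-05 and 5.3e-04). The Alad call was lost without probe sets marked as reading several transcripts.

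Subfamily C, the conjugate and drug exporters, had 1 of 10 members higher and 1 lower under TGF-β (10.0% each), beside 15.0% and 17.5% of all genes. Withdrawal left 3 higher (30.0%) and 1 lower (10.0%) than under TGF-β, beside 21.8% and 22.1%. The same counts held against control, beside 21.7% and 23.6%. Abcc3, which exports glucuronide and bile salt conjugates across the basolateral membrane, fell and then rose past control. It read 9.04 and 9.10 in control, 7.79 and 7.73 under TGF-β, and 10.36 and 10.48 after withdrawal. The fall was -1.31 ± 0.0633 (limma adjusted p = 3.95e-05), and the rise of 2.66 on withdrawal was 6.33-fold (3.82e-06), to 1.35 above control (2.11e-05). After Abca1 this was the largest rise of any transporter on withdrawal.

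Abcc1, which exports glutathione conjugates and drugs, was higher than control in both treated groups. It read 10.76 and 10.76, 11.41 and 11.39, and 11.36 and 11.39. It was 0.64 ± 0.0486 higher under TGF-β (limma adjusted p = 2.25e-04) and 0.61 higher after withdrawal (1.5e-04) than in control. The treated groups differed by -0.03, which did not pass (0.672). The rise under TGF-β was lost with the poly-A spikes and the rise after withdrawal with the hybridization spikes. A second probe set was higher by 0.63 and 0.93, and was called 0.30 higher after withdrawal than under TGF-β (limma adjusted p = 0.0396 in the fit over probe sets).

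Abcc5, a cyclic nucleotide exporter, read 9.23 and 9.30, 9.13 and 9.05, and 9.64 and 9.74. It was 0.60 higher after withdrawal than under TGF-β (limma adjusted p = 5.38e-04), and 8 of its 10 probe sets were called higher in that step. Its 0.42 above control (0.00242) was lost under both spike scalings. Abcc4, another cyclic nucleotide exporter, was lower after withdrawal, at -0.20 from TGF-β (0.0185) and -0.21 from control (0.0141), and each call was lost in 3 of the 6 fits. The dim canalicular pump gene Abcc2 was 0.58 higher on withdrawal than under TGF-β (limma adjusted p = 0.00784). The dim Abcc6, Abcc8 and Abcc12, and Abcc9 and Abcc10, were not called by their selected probe sets. Another Abcc10 probe set was 0.48 above TGF-β (limma adjusted p = 0.0053 in the fit over probe sets) and 0.34 above control (0.0216) after withdrawal. Another Abcc8 probe set was at -0.43 (0.0022) and -0.28 (0.0124). The potassium channel genes Kcnj8 and Kcnj11, whose products assemble with those of Abcc8 and Abcc9, were not called in any comparison.

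Subfamily G holds Abcg2, the apical exporter of drugs, urate and porphyrins. It fell at each step. It read 9.76 and 9.78 in control, 9.11 and 9.05 under TGF-β, and 8.28 and 8.25 after withdrawal, with no overlap between groups. It fell by 0.69 under TGF-β (SE 0.0517, limma adjusted p = 2.2e-04) and by 0.82 more on withdrawal (6.83e-05). It ended at -1.503 from control, 2.83-fold lower (8.69e-06).

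Abcg1, which moves sterols to lipoprotein particles and is a textbook LXR target beside Abca1, was dim. It read 5.35 and 5.30, 5.08 and 5.12, and 5.003 and 5.08. It was called at -0.23 under TGF-β (limma adjusted p = 0.0252) and at -0.29 after withdrawal against control (0.0071). The step from TGF-β to withdrawal, -0.06, did not pass (0.437). The first call was lost in 4 of the 6 fits and the second when its probe sets were averaged. Its other probe set was called higher in that step, by 0.26 (limma adjusted p = 0.0478 in the fit over probe sets), and was 0.03 from control (0.835), so the probe sets disagree. The sterol exporter genes Abcg5 (dim) and Abcg8, and Abcg3 and Abcg4, were not called.

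**Figure D3:**
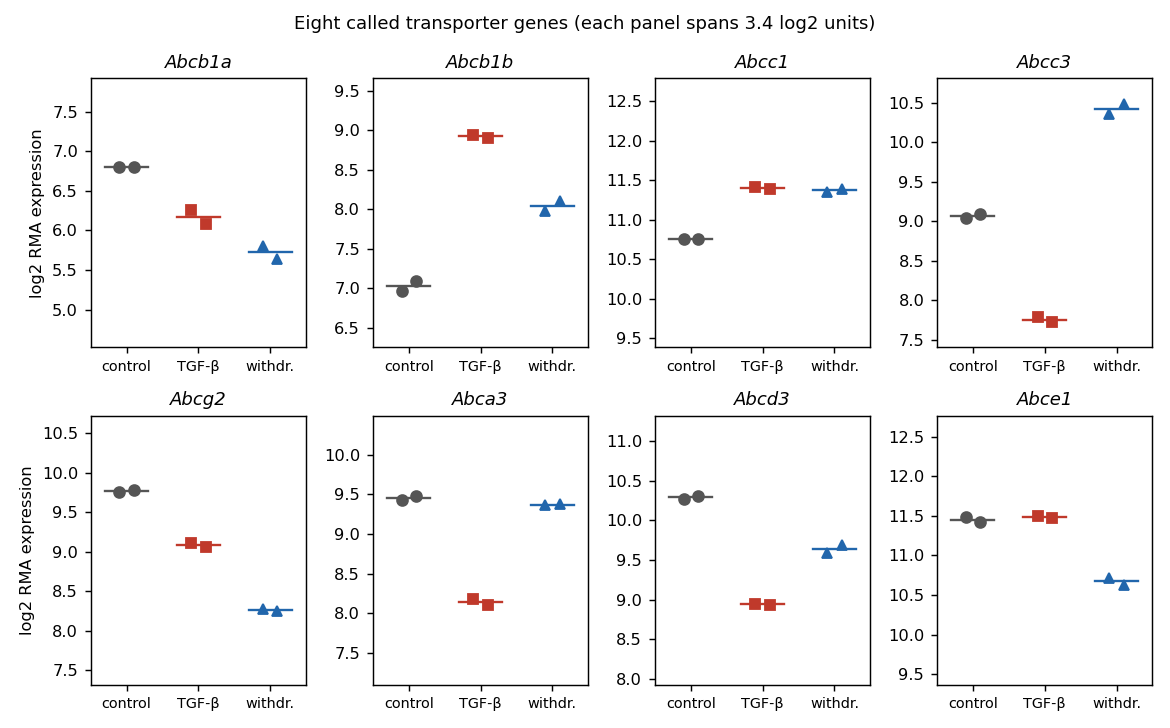
Log2 expression (y axis, log2 RMA; every panel spans the same range) of 8 called transporters on each array by group (x axis), with points for arrays and lines for group means. Abcb1b and Abcc1 are higher under TGF-β, Abca3, Abcc3 and Abcd3 are lower and then higher again, Abcb1a and Abcg2 step down each time, and Abce1 is lower after withdrawal.

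Genes of drug and oxidant defence that accompany these pumps were also measured. Of 14 xenobiotic sensors and Nrf2 targets, 1 was higher and 6 lower under TGF-β, and 5 were higher and 2 lower on withdrawal compared with TGF-β, the last of which became 0 with the poly-A and 4 with the hybridization spikes. The shares were 7.14% and 42.9% under TGF-β, beside 15.0% and 17.5% of all genes, and 35.7% and 14.3% on withdrawal, beside 21.8% and 22.1%. The Nrf2 gene itself, Nfe2l2, fell by 1.07 under TGF-β (limma adjusted p = 4.22e-05), and rose by 1.10 on withdrawal (2.58e-05). Gclc, which starts glutathione synthesis, showed -1.60 and 1.88 for the same steps, and the haem oxygenase gene Hmox1 was 1.47 higher under TGF-β. Of 20 organic ion uptake carriers, none was higher and 5 were lower (25%) under TGF-β, beside 15.0% and 17.5% of all genes. The largest fall and return was that of the uptake carrier gene Slco4a1, at -2.27 and then 2.86.

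Subfamily D carries fatty acids into peroxisomes and a cofactor out of lysosomes. Abcd3, the peroxisomal carrier of branched-chain acyl-CoA, had the largest fall of any transporter under TGF-β. It read 10.27 and 10.31, 8.94 and 8.93, and 9.59 and 9.69. The fall was -1.36 ± 0.0568 (limma adjusted p = 2.33e-05), followed by a rise of 0.70 on withdrawal (1.79e-04) that left it at -0.65 against control (2.17e-04). Its other probe set was dim and not called.

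Abcd4, which serves lysosomal cobalamin release, read 7.72 and 7.66, 7.78 and 7.89, and 8.41 and 8.46. It did not pass under TGF-β (0.14, limma adjusted p = 0.147) and was 0.60 higher on withdrawal (4.84e-04), 0.75 above control (1.84e-04). Dim Abcd2 was called at -0.34 from TGF-β to withdrawal (0.0321), but was lost in 5 of the 6 fits, was -0.20 without withdrawal replicate 2, and 0.07 (0.509) without probe sets marked as reading several transcripts.

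Of 18 other peroxisome genes measured, 13 were higher (72.2%) and 1 lower (5.56%) after withdrawal than under TGF-β, with a median of 0.50, beside 21.8% and 22.1% of all genes. Against control 11 were higher (61.1%) and 2 lower (11.1%), with a median of 0.38, beside 21.7% and 23.6%. With the hybridization spikes the counts were 9 and 2, and 3 and 4, and with the poly-A spikes 13 and 0, and 3 and 1. Phyh, which starts oxidation of phytanic acid, rose by 0.97 on withdrawal, and the catalase gene Cat by 0.72.

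Abce1, the only member of subfamily E, splits ribosomes after termination and was lower after withdrawal. It read 11.48 and 11.42 in control, 11.50 and 11.47 under TGF-β, and 10.71 and 10.63 after withdrawal. TGF-β and control overlapped and differed by 0.03 (limma adjusted p = 0.72). Withdrawal was -0.81 ± 0.0569 from TGF-β (1.02e-04) and -0.78 from control (1.09e-04). All 3 of its probe sets were called lower in both comparisons, by -0.63 to -1.82 from TGF-β.

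Subfamily F had no call under TGF-β. Abcf2 read 9.39 and 9.29, 9.33 and 9.49, and 8.92 and 9.02, and was -0.44 from TGF-β (limma adjusted p = 0.00452) and -0.37 from control (0.00905). The first call was lost with the poly-A spikes and the second in 2 of the 6 fits. Abcf1, an initiation factor partner, was -0.19 (0.0255) and -0.23 (0.0111), in 1 of its 6 probe sets, and the calls were lost in 4 and 1 of the 6 fits. Abcf3 was higher, by 0.30 (0.0379) and 0.49 (0.0053); the first call was lost in 3 of the 6 fits and the second under both spike scalings.

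Of 8 partners in ribosome recycling and initiation, 2 were higher (25%) and 6 lower (75.0%) after withdrawal than under TGF-β, with a median of -0.42, beside 21.8% and 22.1% of all genes. These counts became 1 and 3 with the poly-A spikes and 0 and 6 with the hybridization spikes. Against control, 1 was higher (12.5%) and 4 lower (50%), with a median of -0.38, beside 21.7% and 23.6%. The termination factor gene Etf1 read 11.18 and 11.23, 11.16 and 11.15, and 10.32 and 10.25, a difference of -0.92 from control (limma adjusted p = 4.6e-05). The rescue factor gene Pelo was -0.45 under TGF-β and -0.94 after withdrawal from control.

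Around Abca1, the LXR genes and targets fell under TGF-β in 6 of 14 cases (42.9%) and rose in 3 (21.4%), beside 17.5% and 15.0% of all genes. After withdrawal 7 were higher (50%) and 2 lower (14.3%) than under TGF-β, beside 21.8% and 22.1%, with a median of 0.21 that became -0.005 with the hybridization spikes. Against control 5 were higher (35.7%) and 1 lower (7.14%), beside 21.7% and 23.6%, with a median of -0.01, and 3 and 9 with the hybridization spikes. The LXRα gene Nr1h3 read 5.97 and 5.82, 5.38 and 5.45, and 6.66 and 6.66. It fell by 0.48 under TGF-β (limma adjusted p = 0.00293) and rose by 1.24 on withdrawal (4.1e-05), to 0.76 above control (2.47e-04). Its control and TGF-β values lie in the range of the dim genes, so the size of these changes is limited by weak signal. The LXRβ gene Nr1h2 was not analysed here. The lipogenic regulator gene Srebf1, an LXR target, showed -0.85 under TGF-β and 0.82 on withdrawal, and ended at -0.03 from control, which did not pass (0.717). Pltp, a phospholipid transfer protein gene, was 2.76 above control after withdrawal (limma adjusted p = 2.1e-05), and the desaturase gene Scd1 2.99 above. Both were already higher than control under TGF-β, Pltp by 0.76 and Scd1 by 1.92. They rose by a further 1.99 and 1.08 on withdrawal.

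Cholesterol synthesis genes were mostly lower. Of 21 genes of synthesis and uptake, 1 was higher (4.76%) and 13 lower (61.9%) under TGF-β, with a median of -0.26, beside 15.0% and 17.5% of all genes. After withdrawal 3 were higher (14.3%) and 14 lower (66.7%) than in control, with a median of -0.35, beside 21.7% and 23.6%. Between the treated groups 7 were higher and 8 lower, or 2 and 10 with the hybridization spikes. Fdps, which makes farnesyl diphosphate, was -1.05 from control after withdrawal (limma adjusted p = 2.7e-05) and Idi1, an isomerase of the same pathway, was -0.94. Insig2, which retains the sterol sensor in the endoplasmic reticulum, was 0.93 above control. The lower calls under TGF-β of Fdps, Insig2, Lss, Msmo1, Mvd, Mvk and Pmvk were lost in some fits without an array. Those of Fdps, Lss, Msmo1 and Sc5d were lost when probe sets were averaged.

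Of 17 genes of cholesterol trafficking, storage and acceptors, 7 were higher (41.2%) and 5 lower (29.4%) after withdrawal than in control, beside 21.7% and 23.6% of all genes, with a median of 0.11 that became -0.03 with the poly-A spikes and -0.27 with the hybridization spikes. Lipa, the lysosomal acid lipase, was 1.35 above control (limma adjusted p = 1.7e-05). The lysosomal cholesterol exporter gene Npc1 was 1.17 above (4.1e-05). Apoa1, whose product accepts cholesterol from Abca1, read 6.81 and 6.59, 6.43 and 6.40, and 7.91 and 8.18, a difference of 1.34 from control (1.96e-04). The lipoprotein receptor gene Scarb1 was lower, at -1.46 (3e-05).

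**Figure D4:**
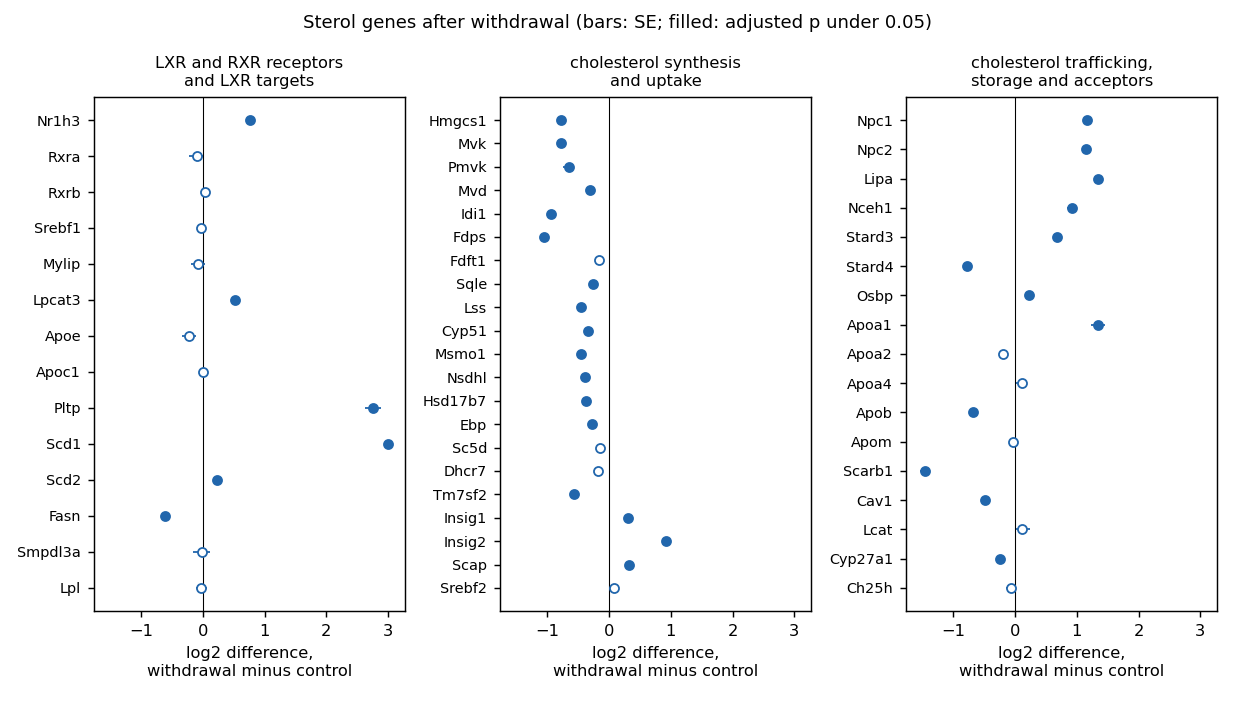
Log2 difference between withdrawal and control (x axis) for the measured genes of 3 sterol lists (y axis), with bars for the SE and filled points for an adjusted p under 0.05. In the synthesis list 14 of 21 points are filled to the left of 0, and in the LXR list 5 of 14 are filled to the right.

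ABC genes with other symbols were read beside the family. The antigen peptide carrier gene Tap2 was 0.49 above control after withdrawal (limma adjusted p = 0.00193), a call lost under both spike scalings. Tap1 was 0.27 above (0.0188), a call that leaving out 1 array or either spike scaling ended, with the sign turned by the hybridization spikes. The chloride channel gene Cftr read 3.46 and 3.49, 3.50 and 3.71, and 4.50 and 4.11, and was 0.83 above control (0.00379). All these Cftr values lie in the range of the dim genes. None of the 3 was called under TGF-β.

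Markers of other cell types were read because Abca1 is abundant in macrophages. Of 10 macrophage markers, 2 were lower under TGF-β, 3 were higher on withdrawal than under TGF-β, and 2 were higher and 1 lower than in control. These shares of 20.0%, 30.0%, 20.0% and 10.0% stood beside 17.5%, 21.8%, 21.7% and 23.6% of all genes. Their summed level, on the log2 scale, was 11.60 to 11.61 in control, 10.25 to 10.27 under TGF-β and 11.71 to 11.76 after withdrawal, and most of it came from Cd14. Adgre1, Csf1r, Ptprc, Itgam, Lyz2, Fcgr1 and Aif1 were not called in any comparison, and the called markers were Mrc1, Cd14 and Cd68. None of the 4 adipocyte markers was called, and 1 of 5 endothelial markers was called, lower under TGF-β. The 6 fibroblast markers summed to 7.41 to 7.46 in control, 10.43 to 10.55 under TGF-β and 10.16 to 10.18 after withdrawal. The withdrawal sum does not speak for the whole list. Against control 3 of these markers were then higher (50%), beside 21.7% of all genes, and 3 were not called. Their median difference was 0.26 and the highest was that of Pdgfrb, 5.395. The 8 mammary epithelial markers summed to 15.72 to 15.72, 14.75 to 14.77 and 15.03 to 15.04. Their part in the changes of the transporters was not tested.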

How the data were processed

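RNA from 3 groups was measured on 6 Affymetrix mouse 3′ expression arrays. The authors deposited log2 values; the submitters' processing notes name RMA, which quantile-normalizes arrays, which sets aside any overall shift. Of 45101 probe sets, 64 control, 932 with several symbols and 9160 with none were left out. The brightest probe set stood for each gene, which can favour probe sets that respond strongly. limma 3.58.1 (R 4.3.3; lmFit and eBayes, no replicate block) was fitted to 18193 genes on all arrays, with Benjamini-Hochberg adjustment; precision is limited by the 2 arrays per group (median SE 0.0701 log2). The script was tested on simulated data. The family and gene lists were chosen with earlier results of these data known. Named were called members, Abca1, 7 set members, 5 non-members nearest Abca1 and up to 4 called genes per list with preset additions. Cell markers were known cell-type genes. Alternatives changed the replicate block, intensity trend, dim genes, probe sets, scaling, a treat threshold of 0.5 log2 and each array. Promoters came from RefSeq's GRCm38.p6 table; protein sequences were not used here.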

Additional observations from a re-analysis of the deposited data

How the results depend on the processing

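Of 882 values of 59 single-gene results under alternatives, 738 kept direction and side of the threshold, 8 changed sign without being called under either setting, 131 lost their call, 3 gained one and 2 reversed a call: Abcb6 from TGF-β to withdrawal, -0.013 with hybridization spikes, and Abcd2 in the same step, 0.0677 without probe sets marked as reading several transcripts. Spike scaling shifts all genes; with the poly-A spikes TGF-β against control gave 1 higher and 18 lower and withdrawal against TGF-β 3 lower, and with the hybridization spikes withdrawal gave 18 lower than TGF-β, and 5 higher and 32 lower than control. Requiring a change beyond 0.5 log2 left 1 higher and 3 lower, 6 and 3, and 4 and 4 in the 3 comparisons (TGF-β with control, withdrawal with TGF-β, withdrawal with control). Leaving out 1 array gave 2 to 2 higher and 7 to 10 lower (7 without control replicate 1), 10 to 13 and 5 to 8 (5 without withdrawal replicate 2), and 9 to 11 and 7 to 10; a group of 1 array was then assumed to vary like the others. Over these fits 9 of 13, 15 of 22 and 15 of 20 calls were kept each time. Same-numbered arrays did not deviate together (correlations -0.00376, 0.00674 and -0.0162). This cannot exclude that the numbers pair cultures, which the labels do not state. With the replicate block the counts were 2 and 10, 12 and 8, and 10 and 10. Reading Abca1 by its other probe sets was added after seeing the data. Calls on the 17 dim transporters are limited by weak signal.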
